A study of Mus musculus with 6 samples.

Results

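The interleukin-1 family and the inflammasome that processes its cytokines were followed through 10 genes in tumour-associated macrophages (TAM) of mouse liver tumours. These are the ligands Il1a, Il1b and Il18, the inhibitors Il1rn and Il18bp, the receptor chains Il1r2 and Il1rap, and the inflammasome genes Nlrp3, Pycard and Casp1. The members were chosen by gene symbol, and 10 of the 55291 symbols in the deposited table belong to the group. Messenger RNA was measured in 3 libraries of TREM2+ TAM and 3 libraries of TREM2- TAM, all from liver tumours, the 2 groups differing by the surface receptor TREM2. No label states strain, age, tumour model, sorting gate or any treatment, or whether the replicates are separate animals. The p-values therefore cover only library-to-library spread, which may be technical. All 10 members passed the filter on low values, a value of 1 or more TPM (transcripts per 1000000, scaled within each library) in 3 or more libraries, as did 13788 genes in all.

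Interleukin-1 alpha and interleukin-1 beta bind the same receptor, whose signal needs the accessory chain encoded by Il1rap and runs through MyD88 to NF-kB. The antagonist encoded by Il1rn occupies that receptor without a signal, and the type II receptor encoded by Il1r2 is a decoy that captures the ligand. Interleukin-18 has a receptor of its own and is held back by the secreted binding protein encoded by Il18bp. Interleukin-1 beta and interleukin-18 are made as precursors that caspase-1 cleaves after NLRP3 and the adaptor ASC, encoded by Pycard, have assembled into an inflammasome, so transcript levels do not report the active cytokines. In the liver, macrophages and infiltrating myeloid cells are known sources of these cytokines.

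Recovered depth ranged from 11493461 to 19929829 reads per library. Trem2, which checks the labels, had 30.7 to 40.8 TPM in TREM2+ and 16.9 to 21.1 TPM in TREM2- libraries, without overlap, and did not pass the test (adjusted p = 0.0855 in limma). Transcripts of the repeat family of Gm10800 took 0.427% to 24.6% of the TPM of a library, and most in replicate 3 of each group. Of 10 macrophage marker genes 3 were called higher in TREM2+ libraries and none lower, yet their summed level was lower, at 39912 to 52178 against 60079 to 76615 TPM. Most of that sum was the lysozyme gene Lyz2, with 28336 to 37301 against 55343 to 70509 TPM. Neutrophil, monocyte and lymphocyte markers were also present in every library, and their values are given below where they touch a member.

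Of the 10 members, 3 rose in the TREM2+ libraries, namely Il18bp, Il1a and Il1b, none fell and 7 did not pass the test. The test was limma's moderated test on log2(TPM + 1) with Benjamini-Hochberg adjustment over 13788 genes and a threshold of 0.05. Among the genes tested 2.05% were called higher and 0.370% lower, 2.42% in all. For 6 members each TREM2+ library lay above each TREM2- library, a separation seen in 9.07% of the genes tested. No member was separated the other way, which 7.62% of the genes tested were, 16.7% being separated in either direction. Those 6 were the called genes and Il18, Nlrp3 and Il1rap. The median log2 fold change of the members was 0.93, beside -0.09 over the genes tested. In bulk libraries fewer cells that express a gene and less of its RNA per cell cannot be told apart.

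**Figure D1:**
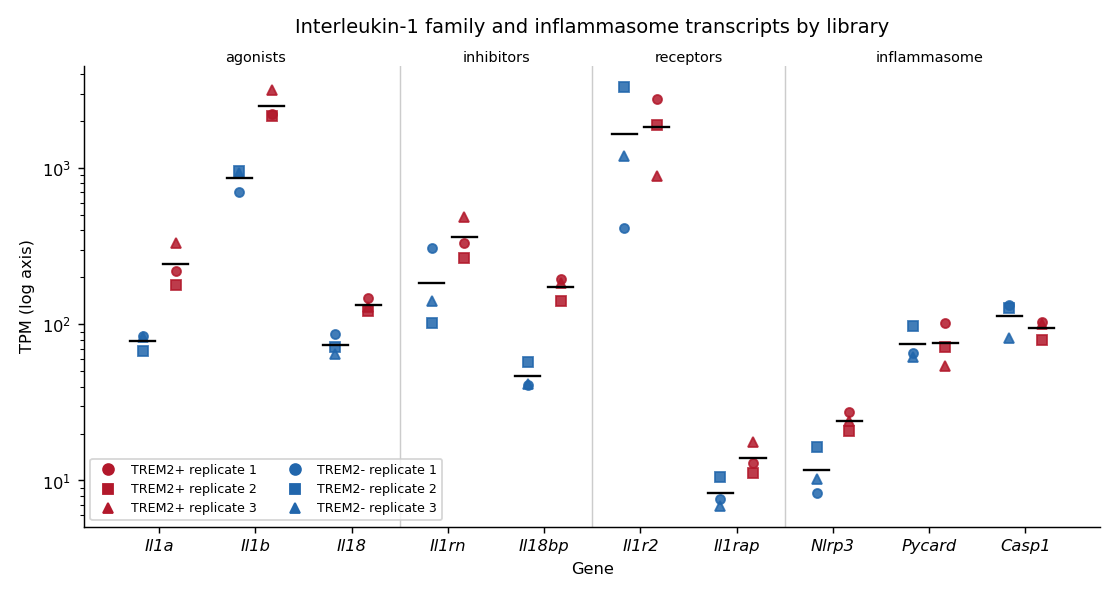
TPM (vertical log axis) of the 10 genes in each library, grouped by role; red symbols are TREM2+ and blue symbols TREM2- libraries, the symbol gives the replicate number, and bars are group means. For Il1a, Il1b, Il18, Il18bp, Il1rap and Nlrp3 the red symbols lie above the blue ones, while for Il1rn, Il1r2, Pycard and Casp1 they overlap.

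**Figure D2:**
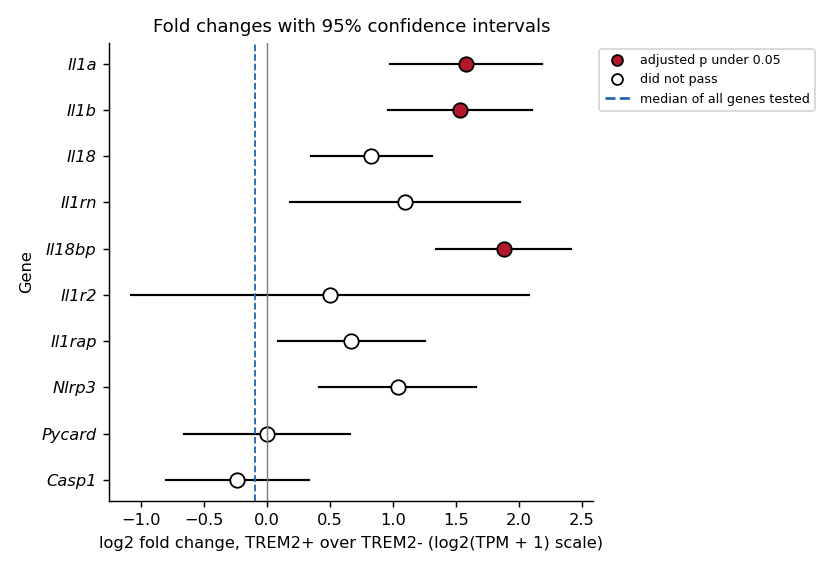
Log2 fold change of each gene, TREM2+ over TREM2- (horizontal axis, log2(TPM + 1) scale), with 95% confidence intervals of the limma fit over 3 against 3 libraries. Filled points passed the threshold; the interval of Il1r2 runs from -1.07 to 2.08, the widest of the 10.

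Il1b, the gene of interleukin-1 beta (ENSMUSG00000027398.13, chromosome 2, 129364570 to 129371139, minus strand, mm10), was among the most abundant transcripts, ranking 63rd of 13788 genes by mean TPM. It stood at 2216, 2165 and 3180.2 TPM in TREM2+ replicates 1, 2 and 3 and at 705, 960 and 930.3 TPM in TREM2- replicates 1, 2 and 3. The groups did not overlap, and the lowest TREM2+ library held 2.26 times the level of the highest TREM2- library. Il1b rose by 1.53 ± 0.25 on the log2 scale (SE, n = 3 against 3), with an adjusted p of 0.0183 in limma. The call was lost without TREM2+ replicate 3 (adjusted p = 0.053 in limma), without TREM2- replicate 1 (0.0579) and without TREM2- replicate 3 (0.0712), with log2 fold changes of 1.35 to 1.63 over the 6 fits that left out 1 library. It was also lost without the filter (0.122), with median-of-ratios scaling (0.0548), with quantile normalization (0.0890), without the repeat family (0.0606) and without both libraries numbered 3 (0.228). With the replicate number as a block the call was lost too (adjusted p = 0.0515 in limma). Between 11414 and 38937 reads per library were recovered for it.

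Il1a, which encodes the ligand that is active without caspase-1 (ENSMUSG00000027399.1, chromosome 2, 129299610 to 129309972, minus strand), lies 54.6 kb from Il1b. It stood at 219, 178 and 333 TPM in TREM2+ replicates 1, 2 and 3 and at 84.0, 68.0 and 82.4 TPM in the TREM2- libraries. As for Il1b, TREM2+ replicate 3 was highest and no library of one group reached the other. Il1a rose by 1.58 ± 0.27 on the log2 scale, with an adjusted p of 0.0194 in limma. It lost the call without TREM2- replicate 1 (0.0522) or TREM2- replicate 3 (0.0688), without the filter (0.0946), with quantile normalization (0.0504), without the repeat family (0.0564) and without both libraries numbered 3 (0.168). The deposited counting names no strand setting, and 222 of the 1974 exon bases of Il1a, or 11.2%, are shared with Gm14023 on the opposite strand, so reads of the pair cannot be told apart there.

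Il18, the gene of interleukin-18 (ENSMUSG00000039217.13, chromosome 9, 50554827 to 50581840), did not pass. It stood at 147, 121 and 129 TPM in the TREM2+ and at 86.9, 71.7 and 64.4 TPM in the TREM2- libraries. The groups did not overlap and the replicates lay close together, with a coefficient of variation of 10.1% in the TREM2+ and 15.5% in the TREM2- group. Its log2 fold change was 0.83 ± 0.21, with an adjusted p of 0.0996 in limma. It was called in 5 other settings, with voom on recovered reads (0.0232), without the repeat family (0.0273), with median-of-ratios scaling (0.0195), quantile normalization (0.0210) and library weights (0.0064).

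The RefSeq windows of 250 bases before the annotated start of Il1b and Il1a are shown because both genes rose and both windows hold the same motif near the start. Capitals mark matches to TATAAA and, in Il1a, also to the AP-1 motif TGANTCA. The sequences run 5′ to 3′ on the gene's strand in GRCm38.p6, the RefSeq name of the mm10 assembly, and end at the base before the start.
Il1b, chr2:129371140-129371389, minus strand: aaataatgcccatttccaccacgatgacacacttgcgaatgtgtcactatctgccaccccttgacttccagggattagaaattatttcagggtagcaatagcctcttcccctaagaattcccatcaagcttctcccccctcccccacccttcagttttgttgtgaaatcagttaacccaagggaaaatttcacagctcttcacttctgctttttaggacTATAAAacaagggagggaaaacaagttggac
Il1a, chr2:129309973-129310222, minus strand: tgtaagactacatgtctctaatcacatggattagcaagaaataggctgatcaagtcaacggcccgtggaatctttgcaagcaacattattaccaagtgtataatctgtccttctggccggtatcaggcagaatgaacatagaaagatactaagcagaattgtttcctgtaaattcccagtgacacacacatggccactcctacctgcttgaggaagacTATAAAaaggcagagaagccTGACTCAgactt

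The first T of TATAAA lay 31 bases before the start in Il1b and 32 bases before it in Il1a. On the gene's strand at 25 to 35 bases before the start, TATAAA occurred in 1.75% of the 32851 RefSeq windows and in 2 of the 13 windows of the 10 members, those of Il1a and Il1b. AP-1 matches (TGANTCA, 6.75% of windows on either strand) were found in Il1a, 12 bases before the start, and in 1 of the 3 windows of Il1rn. The NF-kB consensus (7.25% of windows) matched in 1 member window, that of one Nlrp3 start, 186 bases before it. The gamma-activated site TTCNNNGAA (7.02%) matched in Il1r2, 111 bases before the RefSeq start. That window, 40085843 to 40086092 on chromosome 1, lies inside the printed gene, which starts at 40074079. The window of Il18bp, 102018233 to 102018482 on chromosome 7, also lies inside the printed gene. So do the Il1rn windows that start at 24345041 and 24345121 and the Nlrp3 window that starts at 59542436. The interferon response repeat (2.98%) and the cyclic AMP element TGACGTCA (1.55%) matched in no member window, and none of the motifs matched in that of Il18bp. TATAAA on either strand anywhere in the window, found in 12.4% of windows, also matched in Il18, on the opposite strand. Both strands were searched and none of the matches reported here overlapped another. All 10 members had a window in the RefSeq table, and the position range for TATAAA was chosen after the matches were seen. These are matches of letters and say nothing of binding.

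Il18bp, the gene of the secreted interleukin-18 binding protein (ENSMUSG00000070427.4, chromosome 7, 102014885 to 102018690, minus strand), had the largest fold change of the members. It stood at 196, 141 and 185 TPM in TREM2+ replicates 1, 2 and 3 and at 40.7, 57.6 and 41.8 TPM in TREM2- replicates 1, 2 and 3. The lowest TREM2+ library held 2.44 times the level of the highest TREM2- library. Il18bp rose by 1.88 ± 0.24 on the log2 scale, with an adjusted p of 0.0060 in limma, and 0.798% of the genes tested had a larger one. Il18bp stayed called in all 6 fits that left out 1 library, at log2 fold changes of 1.79 to 2.04. It was not called without both libraries numbered 3, where limma called 0 genes in all (adjusted p = 0.168 for Il18bp), while 636 genes were higher and 444 lower by unadjusted p below 0.05. Of its 3026 exon bases 80 are shared with Numa1 on the opposite strand.

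Il1rn, the gene of the interleukin-1 receptor antagonist (ENSMUSG00000026981.15, chromosome 2, 24336853 to 24351494), did not pass and its groups overlapped. It stood at 334, 268 and 489 TPM in the TREM2+ and at 307, 102 and 141 TPM in the TREM2- libraries. TREM2- replicate 1 lay above TREM2+ replicate 2 and about 3 times as high as TREM2- replicate 2. Its log2 fold change was 1.10 ± 0.40, with an adjusted p of 0.274 in limma. Without TREM2- replicate 1 it was 1.55 (adjusted p = 0.0662 in limma), and with estimated library weights it was called (1.51, adjusted p = 0.0119). The table gives 1 value per gene, so the secreted and intracellular forms, which start at different exons, were not separated.

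Il1r2, the decoy receptor (ENSMUSG00000026073.13, chromosome 1, 40074079 to 40125231), ranked 62nd by mean TPM, next to Il1b, and had the widest spread of the members. It stood at 2761, 1906 and 886.5 TPM in TREM2+ replicates 1, 2 and 3 and at 413, 3337 and 1190.4 TPM in TREM2- replicates 1, 2 and 3. The highest and the lowest library both belonged to the TREM2- group and differed 8.08-fold. For Il1r2 the log2 fold change was 0.50 ± 0.70, with an adjusted p of 0.858 in limma and a 95% interval from -1.07 to 2.08. It was -0.25 without TREM2- replicate 1 and 1.25 without TREM2- replicate 2, so 1 library set its sign.

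The marker genes Chil3, a chitinase-like protein of monocytes and macrophages, and Mmp8, a neutrophil collagenase, had their highest value in the same library as Il1r2. Chil3 stood at 69640.4 TPM in TREM2- replicate 2 and at 1946 to 27674 TPM in the other 5 libraries. Mmp8 stood at 2126 TPM there and at 144 to 839 TPM elsewhere. Retnlg, another neutrophil gene, was at 6439 TPM in that library, the lowest of the TREM2- group. The part of these cells in the level of Il1r2 was not tested.

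Il1rap, the accessory chain of the interleukin-1 receptor (ENSMUSG00000022514.14, chromosome 16, 26581704 to 26730117), was the least abundant member by TPM. That rank depends on its exon length of 11360 bases. In recovered reads, 503 to 1285 per library, Il1rap lay above Nlrp3 in every library. Il1rap stood at 12.9, 11.2 and 17.6 TPM in the TREM2+ and at 7.60, 10.6 and 6.88 TPM in the TREM2- libraries. The groups were separated by a narrow gap, the lowest TREM2+ value being 1.06 times the highest TREM2- value. The log2 fold change of 0.67 ± 0.26 did not pass (adjusted p = 0.300 in limma). Of the exon bases of Il1rap 552, or 4.86%, are shared with Gm20319 on the opposite strand. Il1r1, the signalling receptor that pairs with it, was below the filter, at 0.93 to 1.49 TPM in the TREM2+ and 0.247 to 0.586 TPM in the TREM2- libraries.

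Nlrp3, the inflammasome sensor (ENSMUSG00000032691.14, chromosome 11, 59541568 to 59566956), stood at 27.6, 20.8 and 24.1 TPM in the TREM2+ and at 8.35, 16.4 and 10.2 TPM in the TREM2- libraries. The groups did not overlap, but the TREM2- libraries spread 1.96-fold. The log2 fold change of 1.04 ± 0.27 did not pass (adjusted p = 0.111 in limma), and without TREM2- replicate 2 it was 1.29 (adjusted p = 0.0344). Nlrp3 had 265 to 863 recovered reads per library, the fewest of the 9 members with recovered reads.

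The other inflammasome parts overlapped between the groups. Pycard, the adaptor gene (ENSMUSG00000030793.4, chromosome 7, 127989708 to 127993867, minus strand), stood at 103, 71.7 and 54.1 TPM in the TREM2+ and at 65.6, 97.3 and 62.0 TPM in the TREM2- libraries. Its log2 fold change was 0.0027 with a 95% interval from -0.66 to 0.66 (adjusted p = 0.998 in limma), and its sign turned in 7 of the other settings. Of the 3800 exon bases of Pycard 485, or 12.8%, are shared with Gm45205 on the opposite strand, which had at most 0.282 TPM. Casp1, the protease gene (ENSMUSG00000025888.5, chromosome 9, 5298517 to 5307265), stood at 104, 80.0 and 101 TPM in the TREM2+ and at 132, 126 and 81.6 TPM in the TREM2- libraries. Casp1 was the one member with a negative log2 fold change, -0.23 ± 0.25, with an interval from -0.80 to 0.33 (adjusted p = 0.805 in limma). As ratios of TREM2+ to TREM2-, the intervals run from 0.634 to 1.58 for Pycard and from 0.573 to 1.26 for Casp1.

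Ratios of TPM within a library do not depend on how that library is scaled and are given without a test. The pairs were chosen with earlier results known, and the share of all gene pairs that separate the groups was not computed. A ratio can also separate the groups through the difference of either gene alone. In TPM Il18bp exceeded Il18 in the TREM2+ libraries, with ratios of 1.33, 1.16 and 1.44, and lay below it in the TREM2- libraries, with 0.468, 0.803 and 0.65. Whether a ratio lies above or below 1 depends on the exon lengths used, here 3026 bases for Il18bp and 1031 for Il18. In recovered reads Il18bp exceeded Il18 in every library. The comparison of a ratio between the groups does not depend on these lengths. Il1b stood at 15.1, 17.9 and 24.7 times Il18 in the TREM2+ and at 8.11, 13.4 and 14.5 times Il18 in the TREM2- libraries. Both ratios separated the groups, the second by a narrow gap.

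Within the inflammasome, Casp1 stood at 3.76, 3.84 and 4.17 times Nlrp3 in the TREM2+ libraries and at 15.8, 7.71 and 8.04 times in the TREM2- libraries. Pycard stood at 3.72, 3.44 and 2.24 times Nlrp3 against 7.86, 5.94 and 6.10 times. The sensor was therefore the least abundant of the 3 in every library, and less so in the TREM2+ libraries.

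Il1b stood at 171, 193 and 181 times the accessory chain gene Il1rap in the TREM2+ and at 92.7, 90.6 and 135 times it in the TREM2- libraries, which separated the groups. The ratios of Il1a, Il1rn and Il1r2 to Il1b overlapped. Il1a to Il1b was 0.0989, 0.0821 and 0.105 in the TREM2+ and 0.119, 0.0709 and 0.0886 in the TREM2- libraries. Il1rn to Il1b was 0.151, 0.124 and 0.154 in TREM2+ against 0.436, 0.107 and 0.151 in TREM2- libraries, with TREM2- replicate 1 apart from the other 5. Il1r2 to Il1b ran from 0.279 to 1.25 in the TREM2+ and from 0.586 to 3.48 in the TREM2- libraries.

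**Figure D3:**
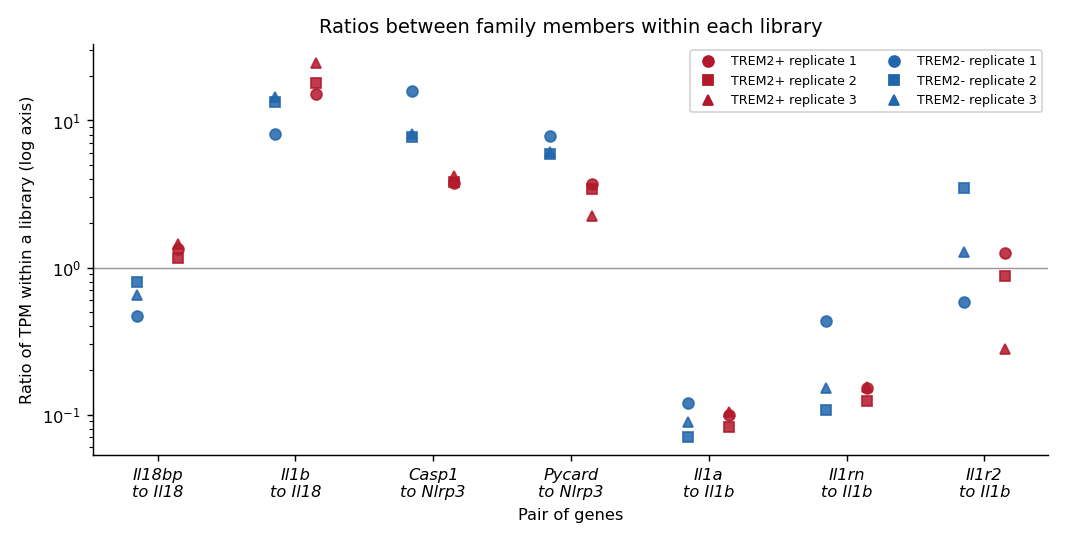
Ratio of the TPM of 2 genes within each library (vertical log axis; the grey line marks equal TPM); red symbols are TREM2+ and blue symbols TREM2- libraries. The 4 pairs on the left separate the groups, among them Il18bp to Il18 with 1.16 to 1.44 in the TREM2+ and 0.468 to 0.803 in the TREM2- libraries, and the 3 pairs on the right overlap.

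Other genes of the pathway were taken by lists. Of the other ligands 2 were tested and none passed. Il1f9, the gene of interleukin-36 gamma, stood at 165, 120 and 339 TPM in the TREM2+ and at 67.9, 86.7 and 62.2 TPM in the TREM2- libraries. Its groups did not overlap and it was highest in TREM2+ replicate 3, as Il1a was, with a log2 fold change of 1.39 ± 0.36 (adjusted p = 0.106 in limma). It was called without TREM2+ replicate 2 (1.71, adjusted p = 0.0384) and without TREM2- replicate 2 (1.52, adjusted p = 0.0487), with a minimum of 5 TPM (0.0422) and with library weights (0.0490). The alarmin gene Il33 stood at 9.45 ± 0.942 against 8.36 ± 4.35 TPM. Il1f10 was at 0 in every library, and Il1f5, Il1f6 and Il1f8 were below the filter.

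None of 5 other receptor genes tested passed, and their median log2 fold change was -0.69. Sigirr, a negative regulator of the family, stood at 6.01, 8.07 and 4.86 TPM in the TREM2+ and at 19.4, 12.0 and 10.1 TPM in the TREM2- libraries (adjusted p = 0.156 in limma). The interleukin-33 receptor gene Il1rl1 stood at 1.57 ± 0.287 against 4.10 ± 2.77 TPM, and the interleukin-18 receptor gene Il18r1 at 2.57 ± 0.772 against 4.94 ± 2.34 TPM. For these 3 genes each TREM2- library lay above each TREM2+ library. The other 2 receptor genes tested had positive log2 fold changes and overlapping groups. Il18rap, also of the interleukin-18 receptor, stood at 11.6 ± 4.13 against 10.2 ± 3.34 TPM, and Il1rl2 at 4.41 ± 1.93 against 2.26 ± 1.37 TPM. Of 7 basophil and mast cell markers 3 were called lower, the direction of the 3 separated genes, none was called higher and 1 had a log2 fold change above 0. Their summed level was 19.7 to 29.5 TPM in the TREM2+ and 119 to 218 TPM in the TREM2- libraries. Of 9 T and NK cell markers none was called, and their summed level was 1250 to 1328 against 1838 to 4372 TPM. Their part in the receptor values was not tested.

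Of the 18 genes of the MyD88 relay none passed and the median was -0.14, close to that of the genes tested. Irak2, a kinase of the relay, had a log2 fold change of 0.81 ± 0.22 (adjusted p = 0.114 in limma), and the NF-kB subunit gene Nfkb1 one of -0.80 ± 0.32 (adjusted p = 0.324). The IkB kinase gene Ikbkb had one of -0.63 ± 0.28 (adjusted p = 0.405). Of 19 other inflammasome and pyroptosis genes none passed, with a median of -0.05. Ninj1, which encodes a protein of plasma membrane rupture, stood at 1074, 658 and 877 TPM in the TREM2+ and at 473, 427 and 303 TPM in the TREM2- libraries (adjusted p = 0.0812 in limma). P2rx4, an ATP-gated channel gene, had a log2 fold change of 0.74 ± 0.22 (adjusted p = 0.156), and Naip6, of a family of sensors of bacterial proteins, one of -0.76 ± 0.28 (adjusted p = 0.282).

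Of 10 other proteases able to process these cytokines or linked to inflammasome activation, 1 rose and none fell, with a median of -0.22. That gene was Ctsb, a lysosomal cathepsin, at 2371, 2393 and 2249 TPM in the TREM2+ and at 1007, 962 and 819 TPM in the TREM2- libraries. Its log2 fold change was 1.33 ± 0.21 (adjusted p = 0.0152 in limma), and the call was lost without TREM2+ replicate 1 (0.0709) or TREM2- replicate 3 (0.0776), without the filter (0.111), on the deposited values (0.129) and without both libraries numbered 3 (0.222). The neutrophil serine protease genes Elane (-2.38 ± 0.75, adjusted p = 0.186) and Ctsg (-1.65 ± 0.49, adjusted p = 0.161) did not pass. Elane stood at 24.5 TPM in TREM2+ replicate 2 and at 1.98 and 2.37 TPM in the other TREM2+ libraries, and without that library Elane (-3.39, adjusted p = 0.0051) and Ctsg (-2.14, adjusted p = 0.0358) were called lower. Both were also called on the deposited values (0.0110 and 0.0369) and with library weights (0.0432 and 0.0433).

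Of 19 NF-kB feedback and interleukin-1 induced genes 4 rose and none fell, with a median of 0.51. They were the neutrophil-attracting chemokine genes Cxcl3 (2.54 ± 0.44), Cxcl2 (2.18 ± 0.39) and Cxcl1 (1.51 ± 0.30) and the cytokine gene Tnf (1.43 ± 0.30), with adjusted p-values in limma from 0.0204 to 0.0454. Of the 6 fits that left out 1 library, Cxcl3 and Cxcl2 stayed called in 3 each, and Cxcl1 and Tnf in 2 each. The call of each of these genes was lost without TREM2+ replicate 3 and without TREM2- replicate 3, with adjusted p-values from 0.0557 to 0.125. Cxcl1, Cxcl2 and Cxcl3 also lost it without TREM2- replicate 1 (0.0661 to 0.0888), Cxcl1 and Tnf without TREM2+ replicate 1 (0.141 and 0.142), and Tnf without TREM2+ replicate 2 (0.059). All 4 lost it without the filter (0.120 to 0.181), without both libraries numbered 3 (0.330 to 0.428) and with the replicate number as a block (0.0551 to 0.138). Cxcl1 and Cxcl2 lost it with median-of-ratios scaling, with quantile normalization and without the repeat family (0.0609 to 0.0652), Cxcl1 and Tnf on the deposited values (0.0611 and 0.138), and Tnf with a pseudocount of 0.1 (0.0564), without mitochondrial genes (0.0583) and without the trend (0.0550). Cxcl1 had 31 to 199 recovered reads per library, the fewest of the called genes named here.

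**Figure D4:**
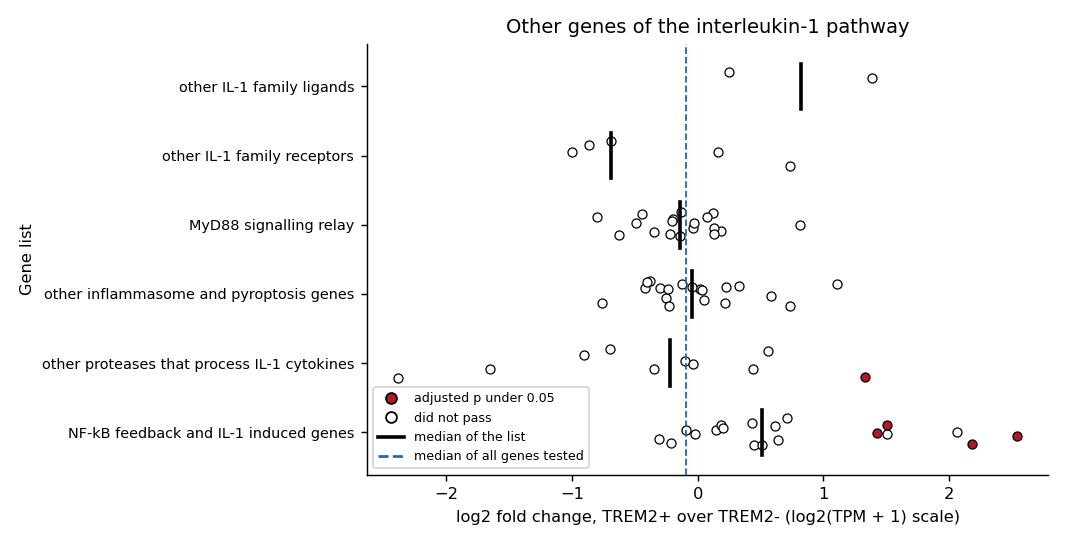
Log2 fold change of each tested gene (horizontal axis, TREM2+ over TREM2-) in 6 lists of the pathway, members left out; filled points passed the threshold, black bars are list medians and the dashed line is the median of the genes tested. Of the 5 filled points 4 lie in the list of NF-kB feedback and interleukin-1 induced genes.

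Neutrophils are a known source of Il1b, Il1a, Il1rn and Il1r2 transcripts. Of 10 neutrophil markers none was called higher and 1, Camp, was called lower, with a median of -0.47. Their summed level was 16241 to 20412 TPM in the TREM2+ and 20412 to 23567 TPM in the TREM2- libraries. The list was divided, with 5 of the 10 log2 fold changes above 0. Cxcr2, the receptor of neutrophil-attracting chemokines, stood at 156, 147 and 214 TPM in the TREM2+ and at 80.3, 94.9 and 90.4 TPM in the TREM2- libraries, without overlap (0.94 ± 0.22, adjusted p = 0.0746 in limma). S100a9, a calcium-binding protein gene of neutrophils and monocytes, did not overlap either, at 5526, 6854 and 9154 TPM against 3181, 4116 and 5320.2 TPM (adjusted p = 0.298 in limma). Both genes were highest in TREM2+ replicate 3, the library with the highest Il1a and Il1b. Another 3 markers were separated the other way, each TREM2- library lying above each TREM2+ library. They were Ngp at 305 ± 181 TPM in TREM2+ against 933 ± 186 TPM in TREM2- libraries, Camp at 58.5 ± 29.2 against 190 ± 29.9 TPM, and Ltf at 33.5 ± 7.59 against 71.1 ± 17.4 TPM. The part of neutrophils in the members' values was not tested.

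Kupffer cell and liver endothelial markers were higher in the TREM2+ group, as were Il1a, Il1b and Il18bp. All 6 Kupffer cell markers were called higher, with a summed level of 934 to 1920 TPM in the TREM2+ and 136 to 239 TPM in the TREM2- libraries. Of 8 endothelial markers 6 were called higher and none lower, with a summed level of 266 to 369 against 26.6 to 53.3 TPM. Within the TREM2+ group both sums were highest in replicate 1, as was Il18bp, while Il1a and Il1b were highest in replicate 3. Of 8 classical monocyte markers 1 was called lower and none higher. None of the 8 had a log2 fold change above 0, with a range of -1.67 to -0.77 and a median of -0.94. For 5 of the 8 each TREM2- library lay above each TREM2+ library, as for 7.62% of the genes tested. The summed levels of the 8, 3945 to 30563 and 13919 to 75514 TPM, overlapped, with Chil3 alone at 1946 to 27674 and 8002 to 69640 TPM. Of 7 dendritic cell markers 1 was called lower, and of 7 B and plasma cell, 9 hepatocyte and 1 stellate cell marker tested none was called. No marker gene of any list was at 0 in a library, and the part of each cell type in the members' values was not tested.

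**Figure D5:**
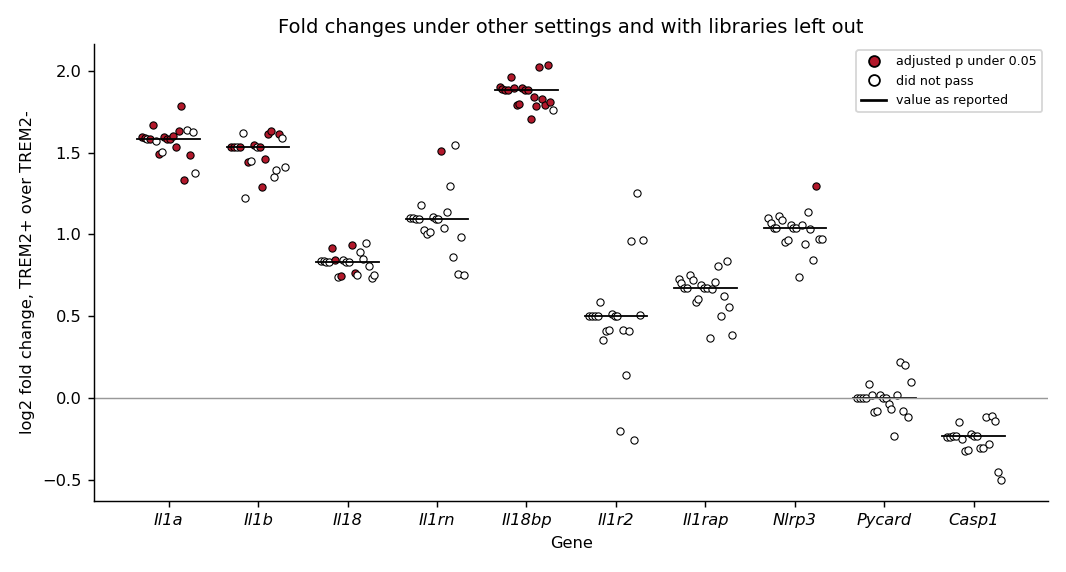
Log2 fold change of each gene (vertical axis) under the other settings and with libraries left out, each point being 1 fit; filled points passed the threshold and black bars are the values reported above. Il18bp stayed called in 19 of 20 such fits, Il1a in 14 and Il1b in 11, and the points of Il1r2 and Pycard fall on both sides of 0.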

How the data were processed

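Messenger RNA of 3 TREM2+ and 3 TREM2- libraries of TAM was measured by paired-end sequencing after TRIzol extraction, per the labels' protocols. The submitters' processing notes name STAR 2.7.10a, Subread, featureCounts 2.0.3 and mm10; annotation release, strand setting and the formula of the values are not stated in any source used here. The deposited table is named as TPM, but its 6 columns together sum to 1000000, so the deposited values are a signal per exon length with no scaling by library. Each library was rescaled to 1000000 here, and the result is called TPM; the test had been written for TPM.

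The test was that of limma 3.58.1 (R 4.3.3) for genes reaching 1 TPM in 3 or more libraries, run on log2(TPM + 1), a scale that understates the change of low genes, with a mean-variance trend, two-sided. A TPM is given ± SD (n = 3), a log2 fold change ± SE. Reads were recovered as signal times exon length in GENCODE M21, whose coordinates are printed. Of 36671 matched rows above 0, 98.7% gave whole reads in each library, to within 0.01 read, but Casp1 did not. The 12 genes that share at least 10% of their stretches of 20 bases with Gm10800 form the repeat family. Reads without molecular identifiers are not independent molecules. The fit was tested on simulated reads, where false calls exceeded the threshold over all genes but not among those with a mean of 200 or more recovered reads. The simulation gave every gene the same relative spread and every library the same profile, apart from the genes changed between the groups. It did not copy the differences between these libraries, so it cannot give the rate of false calls in these data. Of the called genes named here, Cxcl1 is below that level, with a mean of 87.3 reads.

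The members, lists, ratios and motifs were chosen with earlier results of these data known. Named genes are Trem2, the members, the called genes of each list (up to 6, otherwise the 3 smallest p, of which part are printed) and abundant or, chosen after their values were seen, other markers. Leaving out both libraries numbered 3 was also added after seeing the data.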

Additional observations from a re-analysis of the deposited data

How the results depend on the processing

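Of 199 values of the members under 20 other settings, 190 kept their direction, 16 lost a call and 7 gained one; the cause was not tested. The changes of direction concerned Pycard and Il1r2. Pycard was at -0.088 on the deposited values, -0.080 without the repeat family, -0.036 with library weights, -0.067 with voom, and from -0.23 to 0.22 in the fits without 1 library. Il1r2 was at -0.20 with library weights and from -0.25 to 1.25 in the fits without 1 library. Among other genes Il33 turned to -0.20 with library weights and S100a8 to -0.20 with library weights, and S100a8 lay from -0.067 to 0.65 in the fits without 1 library.

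The count of 3 members called higher became 1 without the low-value filter, 5 with library weights, 0 without both libraries numbered 3, and 1 to 4 in the fits without 1 library. Genes called higher, 282 in all, numbered 95 without the filter, 976 with library weights, 444 with voom on recovered reads, 0 without both libraries numbered 3 and 116 to 342 in the fits without 1 library. Genes called lower, 51 in all, numbered 31 with a pseudocount of 0.1, 3 without the filter, 81 with median-of-ratios scaling, 121 with quantile normalization, 92 on the deposited values, 101 without the repeat family, 389 with library weights, 170 with voom, 0 without both libraries numbered 3 and 7 to 105 in the fits without 1 library. Of the calls 84.7% were higher, and 69.1% on the deposited values and 73.8% without the repeat family.

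With the replicate number as a block, limma called 116 genes higher and 10 lower, and Il1a and Il18bp but not Il1b (adjusted p = 0.0515). Same-numbered libraries correlated at 0.188, -0.0325 and 0.224 in their deviations from the group means, and differently numbered ones at -0.376 to 0.132. The repeat family share rose with the replicate number in both groups, from 0.704% to 17.5% in TREM2+ and from 0.427% to 24.6% in TREM2- libraries. No label states that the numbers pair the samples, and the main fit did not pair them. Whether same-numbered libraries share a batch was not tested. Cxcl1, Cxcl2, Cxcl3 and Tnf also lost their calls under the block (0.0551 to 0.138). Sigirr, Irak2 and P2rx4 were called with voom, library weights, quantile normalization and median-of-ratios scaling, Ninj1 with a minimum of 5 TPM, library weights and voom, and Trem2 with library weights and voom. Of the 9 members with recovered reads, Nlrp3 had the fewest, 265 in 1 library.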
